A study of Arabidopsis thaliana with 59 samples.

Results

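The 22-nt small RNAs of Arabidopsis plants that lack DCL4 were set directly against those of plants that lack DCL2, with both routes of cytoplasmic mRNA decay intact. The genes described are all those with a mean of 5 units or more of 22-nt reads in dcl4-2 or in dcl2-1, which are 5234 of the 32375 genes with values. A unit is a read scaled for library size by the authors, whose denominator is not known. The material was the above-ground tissue (aerial part) of untreated Arabidopsis thaliana, taken at 20 days, kept on MS medium for 6 days and then in soil for 14 days, with 4 libraries each of dcl4-2, dcl2-1 and the wild type Col-0. The full series holds 15 genotypes and 59 libraries. Each Dicer-like gene is represented by 1 allele, and all other loci are wild type by the labels in both single mutants. For comparison the text also uses ein5-1 dcl4-2 against ein5-1 dcl2-1, where both groups lack the exoribonuclease EIN5, and ski2-2 dcl4-2 against ski2-2 dcl2-1, where both lack the helicase SKI2, again with 4 libraries each. The triple mutants ein5-1 dcl4-2 dcl2-1 and ski2-2 dcl4-2 dcl2-1 are quoted as levels. So are the single mutants ein5-1 and ski2-2, for a few genes. The labels do not say whether libraries came from separate plants, so p-values measure only the spread between libraries.

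DCL2 and DCL4 are Dicer-like ribonucleases that cut long double-stranded RNA into siRNAs. DCL2 makes siRNAs of 22 nt, and DCL4 makes slightly shorter ones, among them the phased secondary siRNAs that follow cleavage of a transcript by certain microRNAs. The double-stranded RNA is made on cleaved or aberrant transcripts by the RNA-dependent RNA polymerase RDR6. DCL4 takes most of these substrates in wild-type plants, and DCL2 takes them when DCL4 is missing. MicroRNAs are cut from hairpin precursors, mainly by DCL1, while DCL4 processes a few evolutionarily young hairpins and DCL3 makes the siRNAs of transposable elements.

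The sequences below are those the results turn on, credited to RefSeq, assembly TAIR10.1, and written 5′ to 3′. The first set holds mature microRNAs from some of the loci whose 22-nt reads differed between dcl4-2 and dcl2-1, with the seed (bases 2 to 8) in capitals. The MIR822 product lies on the minus strand at chr5:897287-897307. The MIR169d product lies on the minus strand at chr1:20039556-20039576, and MIR169e, MIR169f and MIR169g give the same mature sequence and so share the seed GAGCCAA. The MIR843 product lies on the plus strand at chr3:17742147-17742167. MIR164c and MIR841a complete this set. All are 21 nt long, so the 22-nt reads counted at these loci are not these exact sequences.
miR822-5p: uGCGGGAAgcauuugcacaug
miR169d: uGAGCCAAggaugacuugccg
miR841a-5p: uACGAGCCacuugaaacugaa
miR843: uUUAGGUCgagcuucauugga
miR164c-5p: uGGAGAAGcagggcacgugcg

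A second set holds microRNAs that pair with members described below, again with the seed in capitals. Of these, miR393a-5p, miR472-3p and miR828, are themselves 22 nt long, and miR161.2 is 21 nt. Their own loci gave few 22-nt reads in the deposited table, at 1.29 units in dcl4-2 and 0.222 in dcl2-1 for MIR393a, 0 in both for MIR472, and 0.667 in dcl4-2 and 0 in dcl2-1 for MIR828. MIR393b, another locus of the miR393 family and a member, had 3.07 units in dcl4-2, 5.72 in dcl2-1 and 4.96 in Col-0. It was not called.
miR393a-5p: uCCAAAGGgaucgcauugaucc
miR472-3p: uUUUUCCUacuccgcccauacc
miR828: uCUUGCUUaaaugaguauucca
miR161.2: uCAAUGCAuugaaagugacua

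The matching stretches in the transcripts of members follow, with capitals for the bases that pair with the microRNA in an ungapped alignment and lower case for mismatches. A script searched 31346 annotated mRNAs, 1 per locus, for the best match. For miR393a-5p, AFB2 and AFB3 had 2 mismatches, as few as in 0.00638% of the transcripts, and TIR1 had 3. For miR472-3p, AT5G43740 and AT1G51480 had 1 mismatch (0.00638% of transcripts had as few) and AT5G43730 had 2. For miR828, MYB113 had 3 mismatches (0.00957%) and PAP1 had 4 (0.0542%). For miR161.2, the pentatricopeptide repeat genes AT1G62590 and AT1G63400 had 1 mismatch (0.0128%), and AT1G63080 and AT1G62914 had 2 (0.0351%). A match describes the letters and does not show cleavage.
AFB2 with miR393a-5p (chr3:9870237-9870258, plus strand): GaAaCAAUGCGAUCCCUUUGGA
TIR1 with miR393a-5p (chr3:23273727-23273748, minus strand): GagaCAAUGCGAUCCCUUUGGA
AT5G43740 with miR472-3p (chr5:17566541-17566562, plus strand): GGUAUGGGgGGAGUAGGAAAAA
AT5G43730 with miR472-3p (chr5:17560801-17560822, plus strand): GGUAUGGGgGGAaUAGGAAAAA
MYB113 with miR828 (chr1:24754173-24754194, plus strand): UGGAAcACUCAUUUgAGuAAGA
PAP1 with miR828 (chr1:21234130-21234151, minus strand): UGGAAcACUCAUcUgAGuAAGA
AT1G62590 with miR161.2 (chr1:23178190-23178210, minus strand): UAGUCACgUUCAAUGCAUUGA
AT1G63400 with miR161.2 (chr1:23508308-23508328, plus strand): UAGUCACUUUCAAcGCAUUGA
AT1G63080 with miR161.2 (chr1:23389780-23389800, minus strand): UAGUCACUUUCAAcuCAUUGA
AT1G62914 with miR161.2 (chr1:23302543-23302563, plus strand): UAGUCACUUUCAgcGCAUUGA

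The libraries were of like depth, and 1 of them stood apart the most. Between 74706 and 108899 reads per library were recovered from the deposited means (see the account of processing), and 1 read was worth 0.888 to 1.29 units. Library C of dcl2-1 held more reads than its 3 fellows for genes that are very high in ski2-2 dcl4-2. NIA1 had 1.78, 8.05, 129 and 5.16 units in dcl2-1 libraries A to D, PHB had 1.78, 0.894, 38.9 and 1.29, and SMXL5 had 0, 0, 32.6 and 0. The excess in library C amounted to between 0.0583 and 0.0864% of the ski2-2 dcl4-2 mean for 8 such genes examined. What put these reads in library C of dcl2-1 was not tested, and calls of the genes named below that change without it are given with and without it. Of 50 recovered genes high in ski2-2 dcl4-2, library C was the highest of 4 for 24 in dcl2-1 and for 15 in dcl4-2. Library C of dcl4-2 was the highest of its 4 for NIA1 (102 units), NIA2 (153) and GTE2 (108), for a reason that was not tested. The 22-nt reads over DCL2 itself were 0.807 units in dcl4-2 and 0.223 in dcl2-1, and those over DCL4 were 0.756 in dcl4-2 and 4.21 in dcl2-1. These are small RNAs, not mRNA levels, and so are no check of the genotype labels. The 8 floral organ markers added up to 0.534 units in dcl4-2 and 0.322 in dcl2-1, with 5 of them at 0 in both.

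Most of the 22-nt RNA was shared by the 2 mutants, and the differences ran in both directions. The 5234 genes held 180075 units in dcl4-2, 162656 in dcl2-1 and 162904 in Col-0, which is 90.3, 90.6 and 89.6% of each genotype's total. The median ratio of dcl4-2 over dcl2-1, with 1 unit added to each, was 0.996. The ratio was 2 or more for 602 genes and 0.5 or less for 825, and it reached 5 or more for 60 genes and 0.2 or less for 67. Of the members, 3536 had 5 units or more in both mutants, 790 only in dcl4-2 and 908 only in dcl2-1. Just inside the limit lay AT1G12460, at 5.002 units in dcl4-2 and 2.07 in dcl2-1. Just outside it lay VDAC1, at 4.9985 units in dcl4-2 and 2.37 in dcl2-1.

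In the test across all genes, 598 of the 4954 members tested were higher in dcl4-2 and 817 were lower (limma on log2(units + 1), Benjamini-Hochberg adjusted p below 0.05). Those are 12.1 and 16.5% of the members tested, against 5.88% higher and 7.44% lower among all 11582 genes tested. Among all genes tested, 3.49% were higher and 5.19% lower where the log2 difference was 1 or more and no libraries overlapped. The median log2 difference of members was -0.05, and that of all genes tested was 0.07. The count depends on the scale. With libraries scaled to the sum over the microRNA loci whose libraries were recovered, the median of all genes tested moved to 0.54. On that scale 16.7% of all genes were higher and 2.84% lower in dcl4-2, and 1605 members were higher and 318 lower. That sum leaves out 31 of the 75 microRNA members, the highest among them, such as MIR159b at 5158 units in dcl4-2 and 3670 in dcl2-1. It rests on low loci, some of them called themselves. The highest in it were MIR843 in dcl4-2 (77.4 units) and MIR169d in dcl2-1 (73.1), both called. The summed means of all 75 were 35757 units in dcl4-2 and 39634 in dcl2-1, and a scale that includes the 31 was not tested. Without dcl2-1 library C, 556 members were higher and 709 lower.

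A further 280 members could not be tested, because their libraries could not be recovered from high means. They held 62.0% of the members' summed units in dcl4-2 and 56.1% in dcl2-1. Of these, 74 had a ratio of 2 or more, 18 a ratio of 0.5 or less and 188 lay between. Genes with means above 66.1 units in dcl4-2, and above 101.5 in dcl2-1, were the ones at risk of being left out, which removes more of the genes that are high in dcl4-2. AT2G01021 was the highest gene in all 3 genotypes, at 12483 units in dcl4-2, 9610 in dcl2-1 and 11560 in Col-0. Untested, too, was AT3G06435, at 8630 units in dcl4-2, 1740 in dcl2-1 and 6520 in Col-0.

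**Figure D1:**
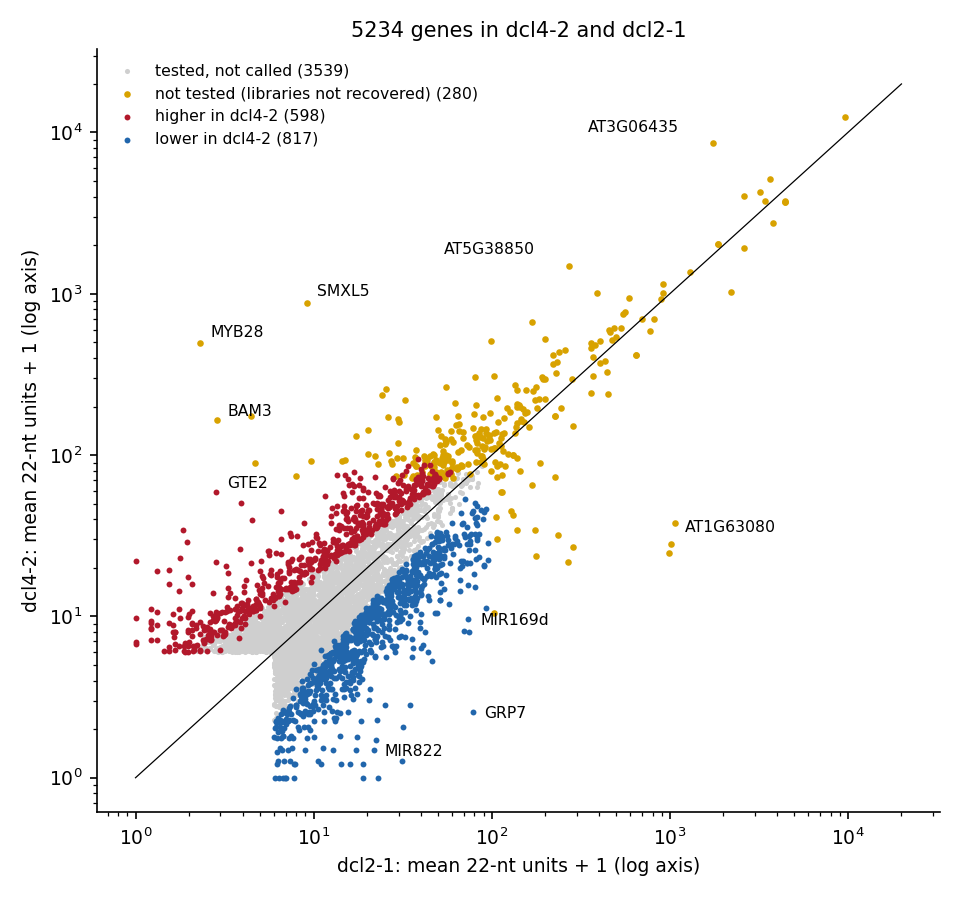
Mean 22-nt units + 1 of 5234 genes in dcl4-2 (y axis, log) against dcl2-1 (x axis, log), with the line of equal values. Red and blue points are the 598 genes higher and the 817 lower in dcl4-2, grey points were tested and not called, and yellow points are the 280 genes without recovered libraries; MYB28 and SMXL5 lie far above the line and AT1G63080 and GRP7 far below it.

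By class, the balance of higher and lower members differed between units as deposited and the scale on recovered microRNA loci. With units as deposited, 12.1% of all members tested were higher in dcl4-2 and 16.5% lower. Of 2295 protein-coding members tested, 356 (15.5%) were higher and 338 (14.7%) lower. With the microRNA loci as the scale 912 were higher and 195 lower. Of 2460 pseudogenes and transposable element genes tested, 219 (8.9%) were higher in dcl4-2 and 453 (18.4%) lower, with a median log2 difference of -0.28. With the recovered microRNA loci as the scale this turned round, and 608 were higher and 109 lower. Whether it also turns with all microRNA loci in the sum was not tested. Of 70 mitochondrial genes tested, 13 (18.6%) were higher and 4 (5.71%) lower, and of 59 chloroplast genes 5 (8.47%) were higher and 0 lower. On the microRNA scale these counts were 34 and 1, and 35 and 0. Without dcl2-1 library C, 339 protein-coding members were higher and 312 lower, and 196 loci of pseudogenes and transposable elements were higher and 375 lower.

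Among the untested members, the 10 with the highest ratio of dcl4-2 over dcl2-1 were 7 protein-coding genes and 3 loci of pseudogenes or transposable elements. MYB28, a transcription factor of aliphatic glucosinolate synthesis, had a mean of 495 units in dcl4-2, 1.296 in dcl2-1 and 11.6 in Col-0. SMXL5, of the SMAX1-like family that acts in phloem formation, had 879 units in dcl4-2, 8.15 in dcl2-1 and 20.7 in Col-0, and its relative SMXL4 had 173, 3.45 and 13.5. All the reads of SMXL4 and SMXL5 in dcl2-1 came from library C, so the other 3 dcl2-1 libraries were at 0. BAM3, a receptor kinase of CLE peptide signalling in the phloem, had 165 units in dcl4-2, 1.88 in dcl2-1 and 1.98 in Col-0, and BAM1 of the same family had 73.0, 7.02 and 12.8. All the BAM3 reads in dcl2-1 also came from library C. These genes were above the recovery limit in dcl4-2, so their differences are given as means with no test. Of the 4 SMXL genes among the members, the 2 that could be tested were not called.

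Some high genes in dcl4-2 were as high in the wild type and low in dcl2-1. GTE2, a bromodomain protein of the GTE family, had 42.7, 47.7, 108 and 34.4 units in the dcl4-2 libraries, against 1.78, 1.79, 2.51 and 1.29 units in the dcl2-1 libraries, and a mean of 49.9 in Col-0. Every dcl4-2 library was above every dcl2-1 library, and GTE2 was higher in dcl4-2 by 4.25 on the log2 scale (SE 0.35, limma adjusted p = 2.8e-31). Its relative GTE7 had means of 88.8 units in dcl4-2, 3.71 in dcl2-1 and 80.4 in Col-0, untested. DGAT3, a soluble acyltransferase of triacylglycerol synthesis, averaged 38.8 ± 16.6 units in dcl4-2 and 3.51 ± 3.73 in dcl2-1 (SD, n = 4 each), with 30.1 in Col-0. Its difference was 3.48 on the log2 scale (limma adjusted p = 1.93e-19), and the libraries did not overlap.

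A few genes of flavonoid synthesis, picked one by one after their values were seen, are given as examples and do not stand for the pathway. TT4, the chalcone synthase that opens flavonoid synthesis, had 32.0, 58.3, 42.0 and 65.6 units in dcl4-2, against 0.888, 1.79, 3.76 and 5.16 in dcl2-1, with a Col-0 mean of 45.4. All 4 dcl4-2 libraries lay far above the dcl2-1 ones, with a log2 difference of 3.79 (SE 0.34, limma adjusted p = 1.74e-26). PAL1, the entry enzyme of the phenylpropanoid pathway, averaged 19.4 ± 2.94 units in dcl4-2 and 2.20 ± 1.84 in dcl2-1 (SD, n = 4 each), with 15.3 in Col-0, a log2 difference of 2.90 (limma adjusted p = 1.83e-09). DFR, the dihydroflavonol reductase, had 24 reads over the dcl4-2 libraries and 0 over the dcl2-1 libraries, at least 7.78-fold higher against a floor of 3 reads over the group, with a mean of 5.97 units in dcl4-2 and 5.28 in Col-0. TT7, the flavonoid 3′-hydroxylase, had 23 reads in dcl4-2 and 0 in dcl2-1, at least 7.45-fold higher by the same floor. Its Col-0 mean of 1.299 units was below the 5.79 of dcl4-2.

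Several enzymes of photorespiration, the recycling of the oxygenation product of Rubisco, are given as further examples, likewise picked after their values were seen. GOX1, a glycolate oxidase, had 54.2, 55.1, 46.3 and 72.1 units in dcl4-2, against 16.9, 13.4, 11.3 and 12.9 in dcl2-1, with 52.6 in Col-0. The groups did not overlap, and the log2 difference was 1.98 (SE 0.23, limma adjusted p = 8.47e-16). HPR, the peroxisomal hydroxypyruvate reductase, averaged 47.6 units in dcl4-2, 13.7 in dcl2-1 and 38.9 in Col-0. AGT, GGT1, PMDH2 and SHM1 were also higher in dcl4-2, by 1.32, 1.31, 1.99 and 1.08 on the log2 scale, and none of them overlapped between groups. AGT, GGT1, PMDH2 and SHM1 had means of 55.9, 54.8, 46.1 and 57.3 units in dcl4-2, 22.2, 22.1, 11.8 and 27.2 in dcl2-1, and 50.4, 43.2, 41.8 and 54.5 in Col-0. CAT2, the leaf catalase, had untested means of 90.4 units in dcl4-2, 8.68 in dcl2-1 and 88.9 in Col-0.

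Nuclear photosynthesis genes, the markers of leaf tissue, leaned the same way. All 15 genes of that list were members, and 14 of 15 had the higher mean in dcl4-2. Their ratios ran from 0.882 to 2.86, with a median of 1.82, against 0.996 for all members. LHCB1.2 and LHCB1.3 were close to even, at 1.09 and 1.01. Close relatives in the list, such as the LHCB1 genes and the genes of the Rubisco small subunit, may share reads. The 15 are thus not separate observations. RCA, the Rubisco activase, had 522 units in dcl4-2, 198 in dcl2-1 and 520 in Col-0. CA1, a carbonic anhydrase, had 143 units in dcl4-2, 49.1 in dcl2-1 and 137 in Col-0. Only 2 of the 15 could be tested. GAPA-2, a chloroplast glyceraldehyde phosphate dehydrogenase, averaged 69.1 ± 8.13 units in dcl4-2 and 36.5 ± 5.29 in dcl2-1 (SD, n = 4 each) and was higher by 0.91 (limma adjusted p = 3.61e-06). PSAG, a photosystem I subunit, was not called, at -0.17, and its value was 0.46 with the microRNA loci as the scale.

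The nitrate reductases NIA1 and NIA2, which reduce nitrate to nitrite, were both called higher in dcl4-2. Both calls held with and without library C of dcl2-1, which stood apart for both genes. NIA1 had 48.0, 47.7, 102 and 59.2 units in dcl4-2, against 1.78, 8.05, 129 and 5.16 in dcl2-1, with 57.9 in Col-0. Library C of dcl2-1 was the highest of the 8, and the other 3 dcl2-1 libraries lay below all of dcl4-2. The log2 difference for NIA1 was 2.38 (SE 0.23, limma adjusted p = 1.74e-21) with all libraries and 3.53 without dcl2-1 library C; without dcl2-1 library A it was 1.68. NIA2 had 68.4, 78.5, 153 and 74.3 units in dcl4-2, against 15.1, 15.2, 112 and 9.03 in dcl2-1. Again only library C of dcl2-1 reached the dcl4-2 values, and the difference was 1.94 with all libraries and 2.70 without it.

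**Figure D2:**
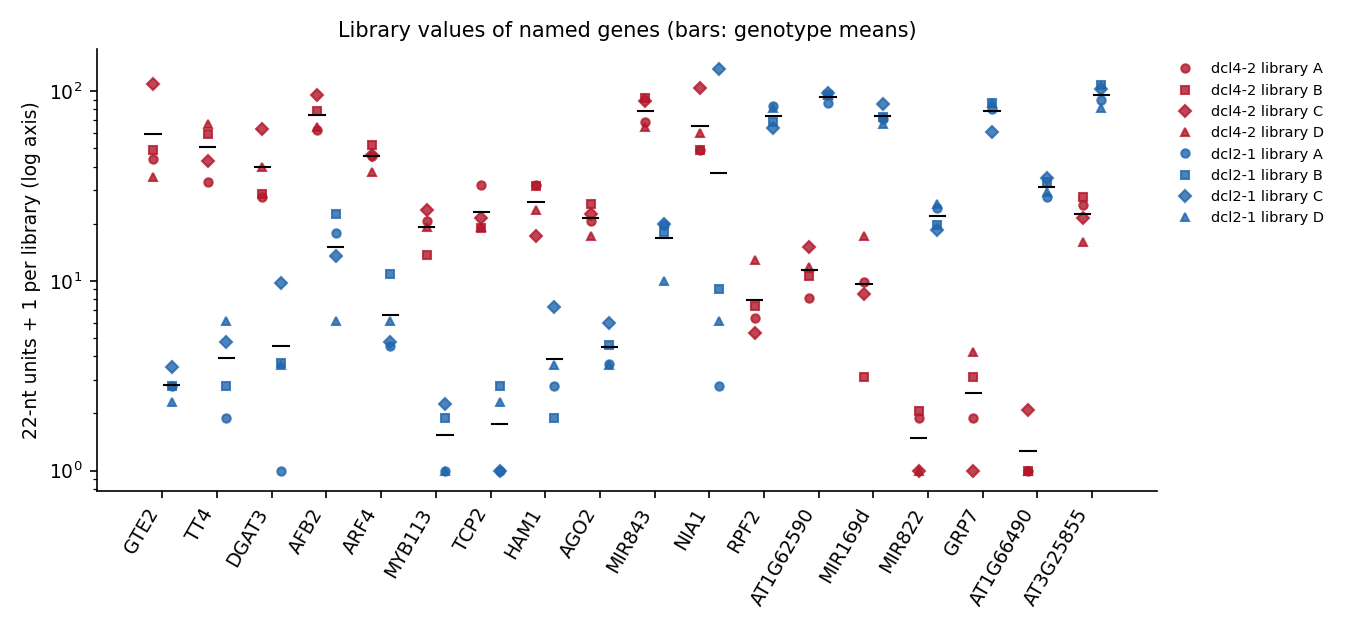
22-nt units + 1 per library (log axis) of named genes, with dcl4-2 libraries in red left of dcl2-1 libraries in blue; symbols mark libraries A to D and short bars the genotype means. GTE2 and AFB2 libraries of dcl4-2 all lie above those of dcl2-1, GRP7 and RPF2 libraries all lie below, and NIA1 overlaps through dcl2-1 library C at 129 units.

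The auxin receptor genes AFB2, AFB3 and TIR1, F-box proteins that bind auxin and are targets of miR393, were all 3 called higher. Of all members tested, 12.1% were higher. AFB1, the remaining gene of that list, was not a member and was not called. AFB2 had 61.3, 77.4, 94.7 and 63.5 units in dcl4-2, against 16.9, 21.5, 12.5 and 5.16 in dcl2-1, with a mean of 14.9 in Col-0. The libraries did not overlap, and AFB2 was higher by 2.45 on the log2 scale (SE 0.22, limma adjusted p = 1.33e-26). TIR1 averaged 13.9 ± 1.61 units in dcl4-2 and 5.56 ± 2.77 in dcl2-1 (SD, n = 4 each), a log2 difference of 1.28 (limma adjusted p = 0.0118). AFB3 averaged 34.9 ± 10.6 units in dcl4-2 and 19.6 ± 5.82 in dcl2-1 (SD, n = 4 each), and its libraries overlapped, with a difference of 0.80 (limma adjusted p = 0.00975). The calls of TIR1 and AFB3 were lost without dcl2-1 library C, at 1.01 and 0.66, and that of AFB3 also without dcl4-2 library D, at 0.63.

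Targets of trans-acting siRNAs, which are made by DCL4 from TAS transcripts, were also higher in dcl4-2. Of 11 genes listed, 5 were members, and only these were tested. Of the 5, 4 (80%) were higher and 0 lower, with a median log2 difference of 2.86. Of all members tested, 12.1% were higher and 16.5% lower. Some, such as MYB113 and PAP1, reached 5 units only in dcl4-2, so the membership rule favours that direction. ARF4, a repressive auxin response factor that sets leaf polarity, had 44.4, 50.9, 45.2 and 36.6 units in dcl4-2, against 3.55, 9.83, 3.76 and 5.16 in dcl2-1, with 6.15 in Col-0. Its libraries lay apart, with a log2 difference of 2.87 (SE 0.30, limma adjusted p = 4.08e-19). ARF3, of the same function, had 32 reads over the dcl4-2 libraries and 2 over the dcl2-1 libraries, a ratio of 15.6 with a 95% counting interval from 3.97 to 134. MYB113, an anthocyanin regulator, had 72 reads in dcl4-2 and 2 in dcl2-1, a ratio of 35.0 (9.34 to 295). PAP1, another anthocyanin MYB, had 36 reads in dcl4-2 and 2 in dcl2-1, a ratio of 17.5 (4.51 to 150). Such intervals cover counting error only. The exception was ARF2, at 21.1 ± 6.51 units in dcl4-2 and 12.1 ± 2.22 in dcl2-1 (SD, n = 4 each), which was not called (limma adjusted p = 0.0981). The TAS loci themselves were not analysed here.

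Targets of conserved microRNAs showed calls in 1 direction. Of 41 genes listed, 18 were members and tested, of which 11 were higher in dcl4-2 and 0 lower, with a median log2 difference of 1.47. TCP2, a leaf growth regulator and miR319 target, had 31.1, 18.0, 20.4 and 18.3 units in dcl4-2, against 0, 1.79, 0 and 1.29 in dcl2-1. The libraries did not overlap, and the difference was 3.82 (SE 0.47, limma adjusted p = 1.14e-13). HAM1, a GRAS regulator of meristems and miR171 target, averaged 25.2 ± 7.18 units in dcl4-2 and 2.88 ± 2.36 in dcl2-1 (SD, n = 4 each), a difference of 2.89 (limma adjusted p = 2.11e-11). ARF8, a miR167 target, averaged 14.98 units in dcl4-2 and 0.544 in dcl2-1, and AP2, a miR172 target, averaged 10.2 and 0.222. SPL2, TOE1, TCP4, TCP10, HAM2, HAM3 and the ATP sulfurylase gene APS1 were the other 7 called. Without dcl2-1 library C the calls of TCP4 (1.34, limma adjusted p = 0.078), HAM2 (1.196, adjusted p = 0.106) and HAM3 (1.06, adjusted p = 0.19) were lost. The class III HD-ZIP genes PHB and REV, targets of miR166, had lower means in dcl4-2, at 6.42 units against 10.7 in dcl2-1 for PHB and 3.29 against 10.9 for REV. Neither was called, and without dcl2-1 library C PHB was called higher, at 1.68, while REV was not called, at 0.88. PHO2, the ubiquitin-conjugating enzyme of phosphate balance and a miR399 target, was not called at 1.44 and was called at 2.05 without that library.

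Silencing factors that are themselves small-RNA targets followed. AGO1, the main microRNA effector and a miR168 target, had 19.6, 31.8, 20.4 and 36.6 units in dcl4-2, against 4.44, 4.47, 15.1 and 9.03 in dcl2-1. The lowest dcl4-2 library was above the highest dcl2-1 library, and the difference was 1.71 (SE 0.31, limma adjusted p = 2.54e-06). AGO2, a miR403 target, averaged 20.4 ± 3.47 units in dcl4-2 and 3.46 ± 1.13 in dcl2-1 (SD, n = 4 each), a difference of 2.28. DCL1, a miR162 target, averaged 22.1 units in dcl4-2 and 12.0 in dcl2-1, a difference of 0.84 (limma adjusted p = 0.0372). The DCL1 call was lost when any 1 of 6 of the 8 libraries was left out, dcl2-1 library C among them (0.83).

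Disease resistance genes of the nucleotide-binding leucine-rich repeat class, some of which are targets of miR472, included some of the highest of these loci. This group was chosen after its values were seen. AT5G38850 had a mean of 1480 units in dcl4-2, 269 in dcl2-1 and 292 in Col-0. AT5G43740, with the miR472 match shown above, had 506 units in dcl4-2, 97.6 in dcl2-1 and 118 in Col-0. AT5G43730 had 143, 19.3 and 20.8 units, and AT1G51480 had 92.5, 14.1 and 12.6, in the same order of genotypes. None of these 4 could be tested. Of the 26 members of the class that were tested, 12 (46.2%) were higher in dcl4-2 and 4 (15.4%) were lower. Of all members tested, 12.1% were higher and 16.5% lower, so the share of lower genes was near that of all members. AT1G63880 was higher, at 20.9 units in dcl4-2 and 1.85 in dcl2-1, by 2.96 on the log2 scale (limma adjusted p = 4.81e-10). The 4 lower were RPP4, RPP5, SNC1 and AT4G16920, neighbours in 1 cluster, with log2 differences of -1.32 to -0.86, and none was lower with the microRNA loci as the scale. The 30 members of the class added up to 2512 units in dcl4-2, 590 in dcl2-1 and 618 in Col-0.

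Pentatricopeptide repeat (PPR) genes included several loci far lower in dcl4-2. PPR proteins bind organelle RNA, and a cluster of them on chromosome 1 is a known source of phased siRNAs set off by miR161, miR400 and a trans-acting siRNA. Of 24 such genes listed, 20 were members, and 15 of these had a ratio of 0.5 or less. The 15 genes together had 251 units in dcl4-2, 4415 in dcl2-1 and 3983 in Col-0, which makes dcl2-1 17.6 times as high as dcl4-2. They were chosen by this same ratio, so a large ratio of their sums was fixed in advance. All 20 members together had 381 units in dcl4-2, 4518 in dcl2-1 and 4091 in Col-0. Of the 15, 13 lie within 333 kb at chr1:23176930-23509484. AT1G63080 had 36.8 units in dcl4-2, 1066 in dcl2-1 and 858 in Col-0. AT1G63400 had 27.0, 1018 and 821 units, and AT1G62914 had 23.6, 989 and 790, in that order of genotypes. These loci and 5 more were too high in dcl2-1 to be tested.

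Of the 12 PPR members tested, 7 (58.3%) were lower in dcl4-2 and 1 (8.33%) was higher, against 16.5 and 12.1% of all members tested. RPF2, which guides the maturation of mitochondrial transcripts, had 5.33, 6.36, 4.30 and 11.8 units in dcl4-2, against 82.6, 67.9, 62.7 and 80.0 in dcl2-1. The groups lay far apart, and RPF2 was lower in dcl4-2, with a log2 difference of -3.30 (SE 0.25, limma adjusted p = 2.47e-35). AT1G62590 had 7.11, 9.54, 14.0 and 10.8 units in dcl4-2, against 85.2, 93.9, 96.6 and 94.1 in dcl2-1, a log2 difference of -3.07 (SE 0.22, limma adjusted p = 2.12e-42). Its libraries did not overlap either. AT1G06580, on another stretch of chromosome 1, went the other way, at 13.0 ± 2.88 units in dcl4-2 and 2.41 ± 2.79 in dcl2-1 (SD, n = 4 each), a difference of 2.52 (limma adjusted p = 5.75e-06). AT1G12300, AT1G12620, AT1G62860 and AT1G63630 were not called, and AT1G62860 lies inside the chromosome 1 cluster region. With the microRNA loci as the scale 4 PPR members were higher and 6 lower. There AT1G12300 (1.19), AT1G62860 (0.89) and AT1G63630 (0.81) were called higher, and AT1G12775 lost its call, at -0.53 against -1.11 with units as deposited. PPR genes resemble one another, so reads that fit several of them may be counted at more than 1.

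**Figure D3:**
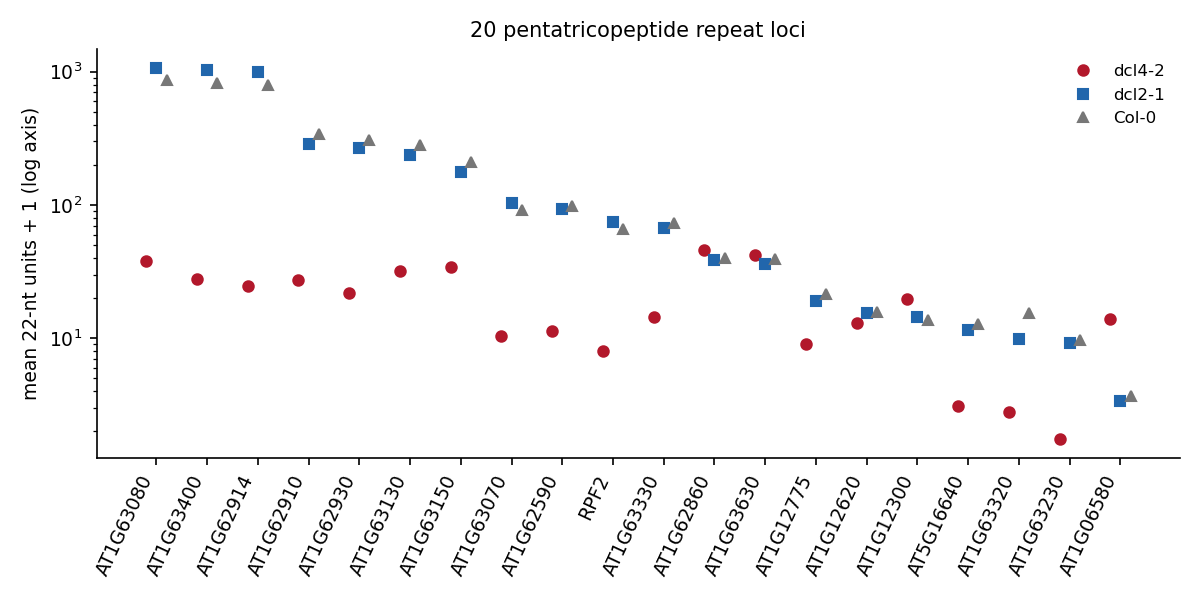
Mean 22-nt units + 1 (log axis) of 20 PPR loci in dcl4-2 (red circles), dcl2-1 (blue squares) and Col-0 (grey triangles), ordered by the dcl2-1 mean. The 3 highest loci are at 989 to 1066 units in dcl2-1 and 23.6 to 36.8 in dcl4-2, while AT1G06580 at the right end is higher in dcl4-2.

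With units as deposited, microRNA loci leaned towards dcl2-1. Of 44 tested, 2 (4.55%) were higher in dcl4-2 and 17 (38.6%) lower, with a median log2 difference of -0.71. Of all members tested, 12.1% were higher and 16.5% lower. Without dcl2-1 library C, 2 were higher and 15 lower. Scaling to the sum over the recovered microRNA loci, which leaves out the 31 untested members, centres the tested loci by construction. Of the tested loci, 6 were then higher and 10 lower. On that scale their median was -0.09, and that of all genes tested was 0.54. All 75 microRNA members added up to 35757 units in dcl4-2, 39634 in dcl2-1 and 27632 in Col-0, which is 17.9, 22.1 and 15.2% of each genotype's 22-nt units. Among the 31 that could not be tested, 13 had the higher mean in dcl4-2 and 18 the lower, with ratios from 0.461 to 2.27. MIR161, whose products pair with PPR transcripts, had the lowest of these ratios, at 1020 units in dcl4-2, 2212 in dcl2-1 and 716 in Col-0. MIR159b, whose product targets GAMYB-like transcripts, had 5158 units in dcl4-2, 3670 in dcl2-1 and 4487 in Col-0.

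MIR822, a young hairpin known to be cut by DCL4, had 0.889, 1.06, 0 and 0 units in the dcl4-2 libraries, against 23.1, 18.8, 17.6 and 24.5 in the dcl2-1 libraries, with a mean of 8.85 in Col-0. The groups did not overlap, and MIR822 was lower in dcl4-2, with a log2 difference of -3.96 (SE 0.49, limma adjusted p = 8.44e-14). In reads this is 2 over the dcl4-2 libraries and 80 over the dcl2-1 libraries, which makes dcl2-1 41.1 times as high (95% counting interval 11.02 to 346). MIR169d, of the family that targets NF-YA subunits, had 8.89, 2.12, 7.53 and 16.1 units in dcl4-2, against 70.1, 72.4, 84.0 and 65.8 in dcl2-1, with 9.85 in Col-0. Here dcl4-2 lay close to the wild type, and all dcl2-1 libraries lay above it, with a log2 difference of -3.17 (SE 0.25, limma adjusted p = 3.48e-34). MIR169g averaged 7.10 units in dcl4-2 and 69.0 in dcl2-1, and MIR169e averaged 2.99 and 14.9. The 4 loci share 1 mature sequence, shown above, so reads of it may be counted at several.

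MIR843 had the highest ratio of dcl4-2 over dcl2-1 among the 75 microRNA members. In units it had 67.5, 91.2, 87.2 and 63.5 units in dcl4-2, against 18.6, 16.99, 18.8 and 9.03 in dcl2-1, with a mean of 6.205 in Col-0. The lowest dcl4-2 library was above the highest dcl2-1 library, and the log2 difference was 2.25 (SE 0.20, limma adjusted p = 3.53e-25). MIR164c, whose product targets NAC transcription factors, averaged 18.1 ± 6.54 units in dcl4-2 and 5.44 ± 1.85 in dcl2-1 (SD, n = 4 each), a difference of 1.55 (limma adjusted p = 0.000556). MIR173, the trigger of several TAS loci, averaged 22.8 units in dcl4-2 and 39.0 in dcl2-1, a difference of -0.69. MIR173, MIR775, MIR779, MIR833a, MIR156c, MIR156d and MIR169i lost their call with the microRNA loci as the scale. MIR173 and MIR156d also lost it without dcl2-1 library C, at -0.59 and -1.07.

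**Figure D4:**
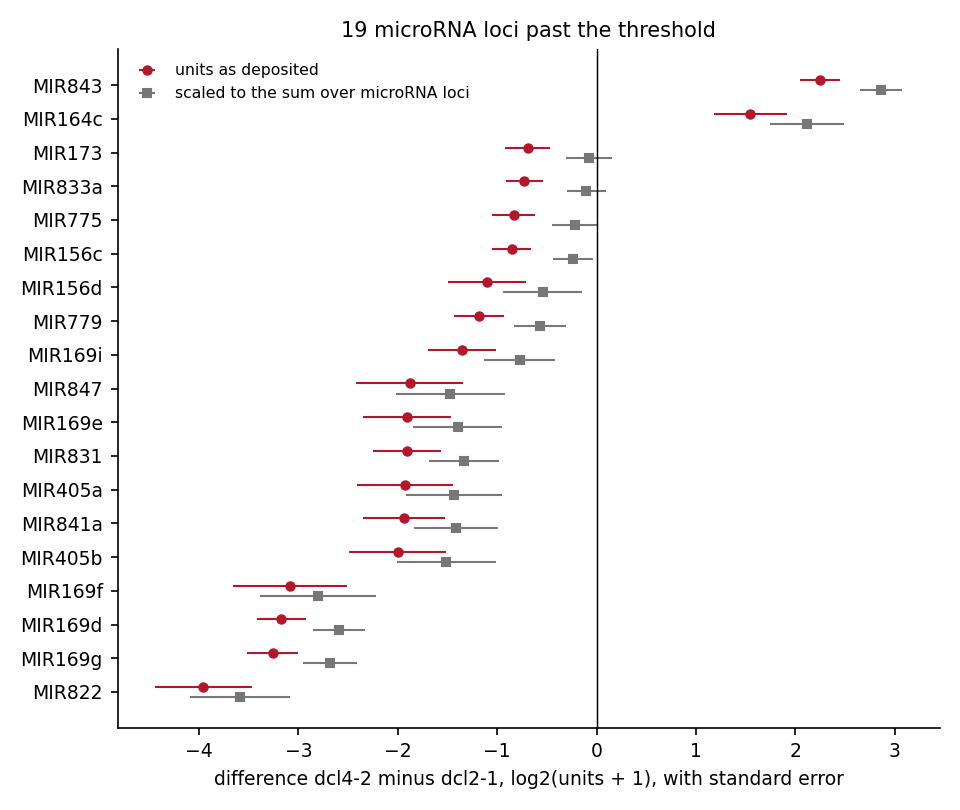
Difference dcl4-2 minus dcl2-1 in log2(units + 1) with its standard error for the 19 microRNA loci past the threshold. Red circles are units as deposited, and grey squares are libraries scaled to the sum over the recovered microRNA loci. MIR843 and MIR164c lie to the right of 0 on both scales, MIR822, MIR169g and MIR169d lie farthest to the left, and MIR173 moves to -0.08 on the second scale.

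Away from the phased loci, several genes were higher in dcl2-1 than in both dcl4-2 and Col-0, though not in dcl2-1 alone in the series. GRP7, a glycine-rich RNA-binding protein of the circadian system, had 0.889, 2.12, 0 and 3.23 units in dcl4-2, against 79.9, 85.8, 60.2 and 85.1 in dcl2-1, with a mean of 1.88 in Col-0. Every dcl2-1 library was high and every dcl4-2 library near the wild type, with a log2 difference of -5.13 (SE 0.33, limma adjusted p = 9.08e-49). Its mean was 68.8 units in the ein5-1 single mutant and 3.92 in ski2-2. AT3G25855, annotated as a copper transport protein, averaged 21.5 ± 4.96 units in dcl4-2 and 94.4 ± 12.4 in dcl2-1 (SD, n = 4 each), with 31.6 in Col-0, 53.9 in ein5-1 and 46.3 in ski2-2, a difference of -2.10. AT1G47497 and AT2G46460, both annotated as ribonuclease H-like, averaged 19.7 units each in dcl4-2, and 89.6 and 89.1 in dcl2-1. Their values were nearly equal in each library, so reads may be shared between them. AT2G45380, annotated as a myeloid leukemia factor, averaged 14.3 units in dcl4-2 and 79.4 in dcl2-1.

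F-box genes other than the auxin receptors were mostly lower in dcl4-2, a group picked by its annotation after values were seen. F-box proteins choose the substrates of SCF ubiquitin ligases. Of 48 F-box members, 47 were tested, and 3 (6.38%) were higher and 27 (57.4%) lower in dcl4-2. Of all members tested, 12.1% were higher and 16.5% lower. The 3 higher F-box genes were AFB2, AFB3 and TIR1. AT1G66490 had 0, 0, 1.08 and 0 units in dcl4-2, against 26.6, 32.2, 33.9 and 28.4 in dcl2-1, with a mean of 2.41 in Col-0. That is 1 read against 115, which makes dcl2-1 118 times as high (95% counting interval 20.8 to 4712). AT1G62270 had 0 units in all 4 dcl4-2 libraries, against 16.0, 14.3, 25.1 and 16.8 in dcl2-1. AT5G47300 averaged 1.06 units in dcl4-2, 31.0 in dcl2-1 and 6.69 in Col-0, a log2 difference of -4.20 (limma adjusted p = 1.69e-19). With the microRNA loci as the scale 3 F-box members were higher and 23 lower, and without dcl2-1 library C 1 was higher and 25 lower. The 48 genes added up to 438 units in dcl4-2, 853 in dcl2-1 and 470 in Col-0.

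By the rule used to name genes, the 15 tested members with the largest gain in dcl4-2 were 10 loci of pseudogenes or transposable elements, 4 protein-coding genes and 1 microRNA locus. AT1G40119, an uncharacterized locus, had the second largest gain of these, at 72.0, 79.5, 56.0 and 88.3 units in dcl4-2, against 13.3, 11.6, 17.6 and 7.74 in dcl2-1. Its libraries did not overlap, and the log2 difference was 2.50 (SE 0.22, limma adjusted p = 4.65e-27). The 15 with the largest loss were 11 protein-coding genes, 2 microRNA loci and 2 loci of pseudogenes or transposable elements. AT3G62200, annotated as a putative endonuclease or glycosyl hydrolase and chosen after its values were seen, had 39.1, 30.8, 33.4 and 30.1 units in dcl4-2, against 0.888, 0, 2.51 and 0 in dcl2-1. Its Col-0 mean was 0.963 units, near that of dcl2-1.

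The wild type lay nearer dcl4-2 for most of the called genes, in both directions. Of the 598 members higher in dcl4-2, the Col-0 mean was nearer the dcl4-2 mean for 366 (61.2%) and nearer the dcl2-1 mean for 232 (38.8%). Of the 817 lower, it was nearer dcl4-2 for 500 (61.2%) and nearer dcl2-1 for 317 (38.8%). GTE2, TT4, GOX1 and GRP7 are of the first kind, and AFB2, ARF4, AGO2, RPF2 and AT1G62590 of the second.

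The same loss of DCL4 against loss of DCL2 was compared in plants that also lack EIN5 or SKI2. In the ein5-1 background 19.2% of 17923 genes tested were higher in ein5-1 dcl4-2 and 3.11% lower, and in the ski2-2 background 4.95% of 12745 were higher in ski2-2 dcl4-2 and 4.67% lower. With the microRNA loci as the scale, 3350 genes were higher and 575 lower in ein5-1 dcl4-2, and quantile normalization, which makes the libraries' distributions equal, gave 1623 higher and 1596 lower. Of the 598 members higher in dcl4-2, 554 could be tested in ein5-1, where 139 (25.1%) were higher and 52 (9.39%) lower. In ski2-2, 533 could be tested, and 107 (20.1%) were higher and 53 (9.94%) lower. In both backgrounds the share called lower was thus also above that of all genes tested, 3.11 and 4.67%. Their median log2 difference was 0.30 in ein5-1, below the 0.57 of all genes tested there, and 0.19 in ski2-2, against 0.05. The shared genes are 4.05% of all genes higher in ein5-1 dcl4-2 and 17% of those higher in ski2-2 dcl4-2. Of the 505 that could be tested in both, 45 were higher in all 3 comparisons.

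Of the 817 members lower in dcl4-2, 801 could be tested in ein5-1, where 84 (10.5%) were lower in ein5-1 dcl4-2 and 35 (4.37%) higher. In ski2-2, 792 could be tested, and 92 (11.6%) were lower and 43 (5.43%) higher. Their median log2 difference was -0.17 in ein5-1, against 0.57 for all genes tested there, and -0.03 in ski2-2, against 0.05. The shared genes are 15.1% of all genes lower in ein5-1 dcl4-2 and 15.5% of those lower in ski2-2 dcl4-2. Of the 785 tested in both, 39 were lower in all 3 comparisons. Whether the effects differ between backgrounds was not tested.

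The 10 untested genes with the highest ratio were followed in the other backgrounds. They added up to 2584 units in dcl4-2, 98.2 in dcl2-1 and 341 in Col-0. They added up to 180492 units in ein5-1 dcl4-2, 290 in ein5-1 dcl2-1 and 251 in the triple mutant ein5-1 dcl4-2 dcl2-1. In the ski2-2 background the sums were 88745 units in ski2-2 dcl4-2, 177 in ski2-2 dcl2-1 and 556 in ski2-2 dcl4-2 dcl2-1. The sums were carried by a few genes, among them GTE7 at 92714 units in ein5-1 dcl4-2 and SMXL5 at 55180 in ski2-2 dcl4-2. Of the 10, 4 had lower means in ein5-1 dcl4-2 than in dcl4-2, namely AT3G43862 (82.5 against 256 units), AT4G06517 (102 against 234), AT5G32197 (73.4 against 130) and CAT2 (58.9 against 90.4). CAT2 was also lower in ski2-2 dcl4-2, at 39.4 units. MYB28 had 22791 units in ein5-1 dcl4-2 and 49.7 in ein5-1 dcl2-1, against 2364 in ski2-2 dcl4-2 and 5.22 in ski2-2 dcl2-1.

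The 15 PPR loci, chosen by their ratio in the single mutants, were lower in sum with DCL4 lost than with DCL2 lost in all 3 backgrounds. The 15 loci added up to 349 units in ein5-1 dcl4-2, 4016 in ein5-1 dcl2-1 and 34.4 in the ein5-1 triple mutant. They added up to 1134 units in ski2-2 dcl4-2, 7222 in ski2-2 dcl2-1 and 41.8 in the ski2-2 triple mutant. MIR822 was lower by like amounts in all 3, with log2 differences of -3.96 in the single mutants, -4.07 in ein5-1 (limma adjusted p = 2.55e-08) and -4.59 in ski2-2 (limma adjusted p = 6.33e-10). MIR843 was higher in all 3, at 2.25, 2.04 and 2.15 in the same order.

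Other genes did not keep their direction in both backgrounds. GRP7, far lower in dcl4-2, had means of 361 units in ein5-1 dcl4-2 and 119 in ein5-1 dcl2-1, untested. It kept its direction in ski2-2, with a log2 difference of -0.73 (limma adjusted p = 0.0181). GAPA-2, higher in dcl4-2, was lower in both other backgrounds, with log2 differences of -1.93 in ein5-1 dcl4-2 and -1.09 in ski2-2 dcl4-2. CA1 had 12.4 units in ein5-1 dcl4-2 and 87.7 in ein5-1 dcl2-1, and 9.27 in ski2-2 dcl4-2 and 70.6 in ski2-2 dcl2-1, the reverse of the order in the single mutants. All 4 photosynthesis genes that could be tested were lower in ein5-1 dcl4-2, and 3 of 4 were lower in ski2-2 dcl4-2. Of all genes tested there, 3.11 and 4.67% were lower.

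**Figure D5:**
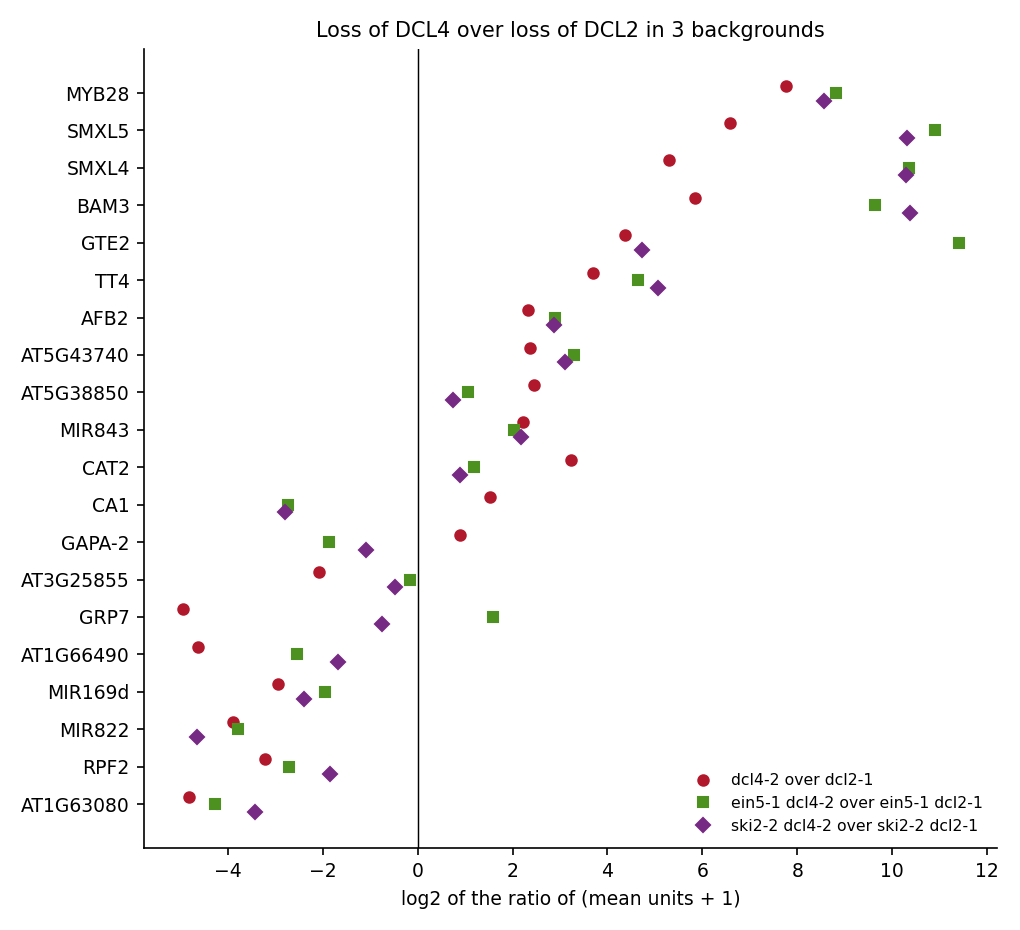
Log2 of the ratio of mean units + 1 for 20 genes, as dcl4-2 over dcl2-1 (red circles), ein5-1 dcl4-2 over ein5-1 dcl2-1 (green squares) and ski2-2 dcl4-2 over ski2-2 dcl2-1 (purple diamonds). MYB28, SMXL5 and BAM3 lie to the right of 0 and MIR822, RPF2 and AT1G63080 to the left in all 3 comparisons. CA1 and GAPA-2 change side in both other backgrounds, and GRP7 in ein5-1 only. The values are of means and carry no test.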

How the data were processed

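The authors deposited the mean 22-nt read signal per gene and genotype, headed TPM per the file headers, for 32420 genes, of which 32375 have values. Its denominator is not known, so values are called units. The submitters' processing notes name Bowtie 1.2.2, SAMtools 1.9 and the build TAIR10; how reads with several matches or of either strand were counted is not given in the sources used here. Each mean is a sum of whole reads of 4 libraries, each times its own step. Library values were recovered where 1 combination alone matched within 1.0 unit of the last printed digit, up to 400 mean steps, for 99.2% of genes in dcl4-2 and 99.6% in dcl2-1, which hold 44.4 and 53.7% of their summed units. Libraries are named A to D by step size. No pair of libraries within either genotype agreed within sampling noise (chi-square per gene 1.36 to 1.50).

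The test was limma 3.58.1 (R 4.3.3) with a trend on intensity, on log2(units + 1), over genes whose mean was 1 unit or more, with Benjamini-Hochberg adjustment over all genes tested and a threshold of 0.05. This scale understates the change of low genes. Python 3.11.15, numpy 2.4.6 and pandas 2.3.3 did the rest, and the scripts were tested on simulated data. Named genes are the 15 higher and 15 lower tested members that differ most in units, with a log2 difference of at least 1 and no overlap, the 10 highest and 10 lowest ratios among untested members, up to 10 microRNA loci, the mutated genes and the gene lists. The members and lists were chosen with earlier results of these data known. The disease resistance, F-box, photorespiration and flavonoid groups, DGAT3, AT3G62200, AT2G01021, AT3G06435, and microRNA loci past the first 10, were chosen after their values were seen. Alternatives were a pseudocount of 0.1, no filter, quantile normalization, the microRNA loci as the scale, a member limit of 10 units and each library left out. The microRNA scale sums only loci whose libraries were recovered in both groups compared.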

Additional observations from a re-analysis of the deposited data

Results flagged for a closer look

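A library far from its 3 fellows was seen in 13 of 192 groups of 4 libraries examined, where chance gives about 1 in 20. Library C of dcl2-1 accounts for 7 of these, with NIA1 at 129 units, NIA2 at 112, REV at 40.1, PHB at 38.9, SMXL5 at 32.6, ARF2 at 8.78 and MIR169g at 80.3. ARF2 was low in that library and the other 6 were high. In dcl2-1, AT3G09510 was at 102 units in library B, and AT1G63320 and AGT were each at 12.9 in library D. In dcl4-2, NIA2 was at 153 units in library C, and PHO2 and TOE1 were at 12.9 and 6.46 in library D.

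For 7 genes the libraries lay apart in the direction opposite to that of dcl4-2 against dcl2-1 in a background without EIN5 or SKI2, and the difference between backgrounds was not tested. GAPA-2 was at -1.93 in ein5-1 and -1.09 in ski2-2 on the log2 scale, SHM1 at -1.52 in ein5-1 and AGT at -0.59 in ski2-2, all higher in dcl4-2 than in dcl2-1. AT2G46460 was at 0.74 and AT4G13885 at 0.63 in ski2-2, and AT1G19420 at 0.63 and AT1G24967 at 0.59 in ein5-1, all lower in dcl4-2 than in dcl2-1.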

How the results depend on the processing

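With the recovered microRNA loci as the scale, 1991 genes were higher and 339 lower in dcl4-2, and 1605 members were higher and 318 lower. PSAG, not called, reversed to 0.46. Quantile normalization gave 1623 genes higher and 1596 lower in ein5-1 dcl4-2, against 3435 and 558 as deposited and 3350 and 575 with the microRNA loci as the scale; it makes the libraries' distributions equal by construction. A pseudocount of 0.1 gave 313 genes lower in ski2-2 dcl4-2, against 595. The cause of the other moves was not tested. All other settings kept the counts of dcl4-2 against dcl2-1 within 1.5 times, and leaving out 1 library gave 471 to 558 members higher and 678 to 749 lower. Of 95 named genes called, 16 lost the call under another setting and 14 when 1 library was left out, and 0 reversed. No paired analysis was possible because the recovered libraries carry no replicate numbers. Depth limits low genes, since 1 read is worth 0.888 to 1.29 units.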
